A study of Mus musculus with 12 samples.

Results

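The scavenger receptors are a loose family of cell surface and secreted proteins, and 10 of their genes were examined for N6-methyladenosine (m6A) peaks in mouse lung RNA: Marco, Msr1, Cd163, Cd36, Scara3, Scara5, Stab1, Scarb1, Lgals3bp and Cd5l. They are 10 genes beside the 14988 genes on which at least 1 peak was called. Their peaks were selected on the deposited peak calls of both lists, by the gene on which a peak had been called or the gene to which it had been assigned. The presence of a peak, its fold enrichment and its p value are therefore descriptions of the members. By this rule 15 of the 27292 peaks of OVA lung and 15 of the 26102 peaks of PBS lung belonged to these genes.

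Lung tissue came from female BALB/c mice aged 6 to 8 weeks. OVA mice, a model of acute allergic asthma, were injected with ovalbumin and aluminum hydroxide on days 0 and 7 and breathed aerosolized 3% ovalbumin for 30 min a day from day 14 to day 20. PBS mice received phosphate-buffered saline alone at both steps, so ovalbumin and its adjuvant cannot be told apart. With 3 mice a group, each RNA gave an m6A immunoprecipitated (IP) library and an input library, and the data are 1 pooled peak list per group. The lists hold no value of a single mouse and no read numbers, so the depth behind a peak is unknown and no difference between the lists has a replicate check.

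Scavenger receptors bind oxidized or acetylated lipoproteins, microbes, dying cells and protein complexes, and many of them clear these ligands by endocytosis. In lung they are best known on macrophages, with others on endothelium and fibroblasts. m6A is a methyl mark on adenosines inside RNA, placed mostly near stop codons and in 3' untranslated regions (UTRs) of mRNA, and a peak is a stretch of transcript that is enriched in the IP over the input.

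Of the 10 genes, 5 had a peak called on them in both lists (Msr1, Scara3, Scarb1, Cd163 and Lgals3bp), Scara5 had peaks in the PBS list alone, and Marco, Cd36, Stab1 and Cd5l had none in either. Among all genes of the PBS list, 8.1% had no peak in the OVA list, and among all genes of the OVA list, 11.7% had none in the PBS list. A gene without a peak may be little expressed, little methylated or below what the caller could find, and these cannot be told apart in the lists. Since the RNA is of bulk lung, fewer cells of a type and less RNA per cell cannot be told apart either.

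Of the 15 OVA peaks, 12 overlapped a PBS peak in their exonic blocks and 3 did not. Of all OVA peaks, 19.4% had no such overlap. On the PBS side, 13 of 15 peaks had an OVA partner, among them a peak called on Cant1 and only assigned to Lgals3bp. The other 2 had none, against 14.5% of all PBS peaks. These numbers were close to those of the lists as a whole. The 3 OVA peaks without an overlap were on Cd163 and Msr1, and both PBS peaks without an overlap were on Scara5.

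**Figure D1:**
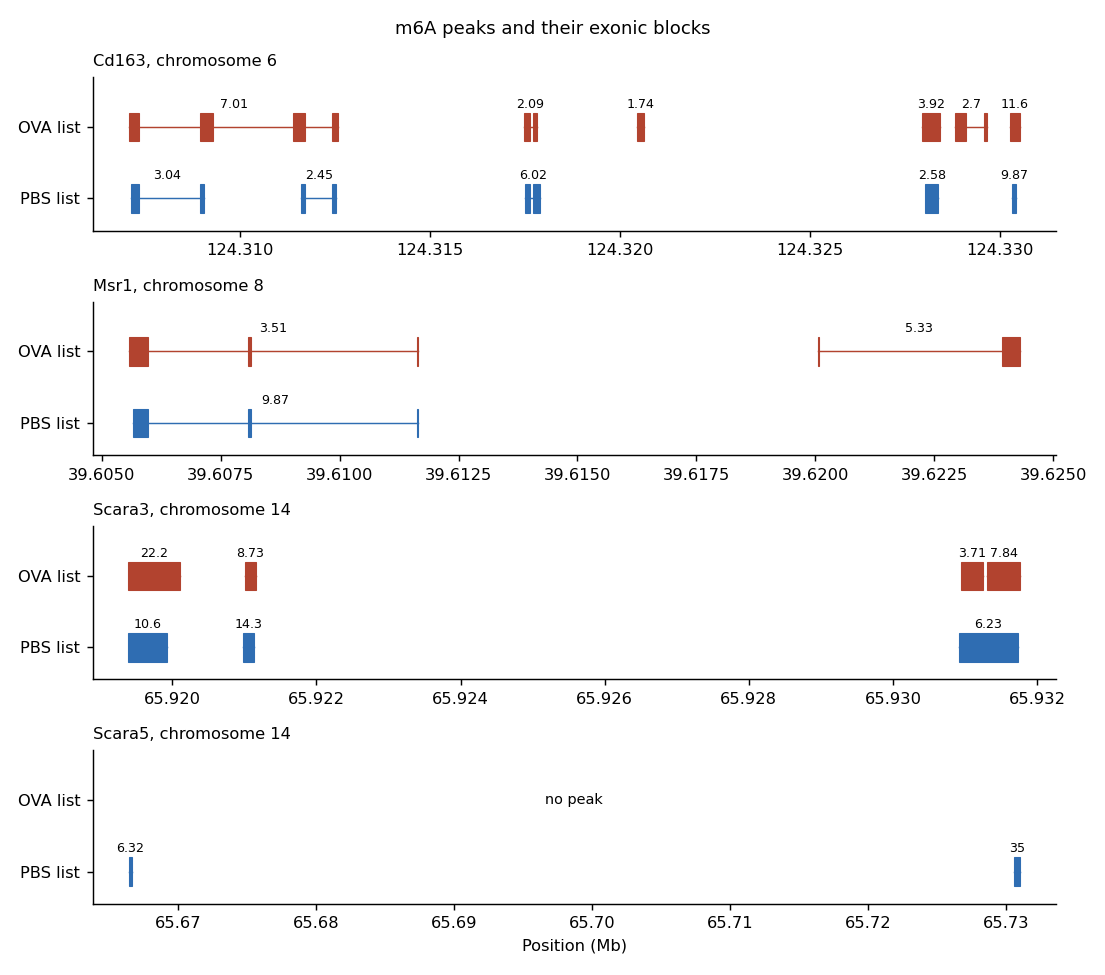
Exonic blocks (bars) of the m6A peaks of 4 genes in the OVA list (red) and the PBS list (blue), by position in Mb, with thin lines joining the blocks of a peak and the fold enrichment of IP over input above it. Cd163 had 6 peaks in OVA and 5 in PBS, Msr1 had 2 and 1, Scara3 had 4 and 3, and Scara5 had 0 and 2.

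Msr1, Marco, Scara3 and Scara5 are class A receptors. Msr1 (ENSMUSG00000025044) encodes macrophage scavenger receptor 1, which takes up modified low-density lipoprotein. Its 3' UTR peak was in both lists, on chromosome 8 from 39605567 to 39611641 in OVA and from 39605657 to 39611641 in PBS. Each had 3 blocks, which summed to 480 bp in OVA and 390 bp in PBS, and all 390 bp of the PBS blocks lay inside those of OVA. Unlike the 3' UTR peaks of Scara3, Cd163 and Lgals3bp, it was far from the RefSeq end of its gene, 62335 bp away in OVA and 62425 bp in PBS. The IP exceeded the input 3.51-fold in OVA and 9.87-fold in PBS. Since folds are relative to the input of their own list, they were compared by rank: the peak stood at percentile 32.4 of the OVA list and at 71.5 of the PBS list, 39.0 points lower in OVA. A rank at least 20 points lower in OVA was seen for 8.56% of all OVA peaks with an overlapping PBS peak, and one at least 20 points higher for 9.12%.

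The p value of this Msr1 peak went the other way. Its log10 p was -129 in OVA and -7.96 in PBS, which put it at percentile 75.9 of the OVA list and 32.4 of the PBS list when peaks are ordered from the weakest to the lowest p. In OVA, then, the peak had the lower enrichment and the far lower p. A caller's p falls with the number of reads as well as with enrichment, and read numbers were not used here, so their part in the difference was not tested.

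A further Msr1 peak, in exon 4 of 10, was in the OVA list alone. It ran from 39620045 to 39624295 with 2 blocks of 390 bp in all, a fold enrichment of 5.33 and a log10 p of -45.2. Most OVA peaks of such a p had a partner. Of the 2739 OVA peaks within 5 points of its p percentile of 60.4, 3.72% overlapped no PBS peak. These peaks were matched by OVA p alone, and the peak was a member through its OVA call. The 3' UTR peak of Msr1 had a log10 p of only -7.96 in PBS. The share makes no allowance for such weak PBS support, so it does not measure how rare the missing PBS peak is.

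Marco (ENSMUSG00000026390), the receptor of alveolar macrophages for bacteria and inhaled particles, had no peak in either list. The nearest peak of the chromosome was called on Steap3, 204509 bp away in the OVA list and 204539 bp away in the PBS list.

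Scara3 (ENSMUSG00000034463), a class A member linked to the response to oxidative stress, had 4 peaks in OVA and 3 in PBS, and each overlapped a peak of the other list. The 3' UTR peak began at the same base of chromosome 14, 65919394, in both lists and at the outermost base of the gene in RefSeq. It ended at 65920113 in OVA and at 65919933 in PBS. With a fold enrichment of 22.2 in OVA (percentile 94) and 10.6 in PBS (percentile 74.2), it was the most enriched of all member peaks in the OVA list. Its log10 p was -86 in OVA and -115 in PBS.

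The peak in the last exon of Scara3 was short, with 151 bp in either list, and shifted in position between them. It ran from 65921012 to 65921162 in OVA, with a fold enrichment of 8.73 (percentile 65.6), and from 65920982 to 65921132 in PBS, with 14.3 (percentile 85). Both log10 p values were weak, -4.2 and -4.33. So the 3' UTR peak and the last exon peak of this gene differed in rank in opposite directions, by 19.9 points up and 19.4 points down in OVA.

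In exon 5 of 6, Scara3 carried 1 PBS peak of 810 bp (65930921 to 65931730, fold enrichment 6.23, percentile 54.8). The OVA list held 2 peaks over the same stretch. One ran from 65930951 to 65931250 with a fold enrichment of 3.71 (percentile 34.7), the other from 65931310 to 65931760 with 7.84 (percentile 61.8). The PBS value lay between both.

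Scara5 (ENSMUSG00000022032) is a ferritin receptor of stromal and epithelial cells. It was the member with peaks in the PBS list and none in the OVA list, where the nearest peak was called on Esco2, 66156 bp from the gene. Its 5' UTR peak lay on chromosome 14 from 65666403 to 65666642, the start of the gene in RefSeq, with a fold enrichment of 6.32 (percentile 55.3) and a log10 p of -6.42. The other peak, annotated to exon 4 of 9, ran from 65730568 to 65731016 with a log10 p of -12.9. The transcript to which it was assigned is a processed transcript of Scara5, not a protein-coding one.

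This exon peak had a fold enrichment of 35 and stood at percentile 98.8 of the PBS list, above every other member peak of both lists, and 301 PBS peaks had a higher fold. Its p was nonetheless in the lower part of the list, at percentile 41.5. Among the 2607 PBS peaks within 5 points of that percentile, 8.36% had no OVA partner, and around the 5' UTR peak, at percentile 27.8, 20.3% of 2607 had none. Of the 6712 genes with at least 2 PBS peaks, 137 (2.04%) had no peak in the OVA list, and Scara5 was 1 of them. That class follows the peak number of Scara5 itself and takes no account of p. Among all genes of the PBS list the share was 8.1%.

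Of the 6 fibroblast markers, Scara3 and Scara5 among them, 4 had a peak in both lists. Pdgfra had 3 peaks in each list, Col1a1 had 2 in each and Col1a2 had 1 in each, while Dcn had none in either. The lowest log10 p of Pdgfra was -4070 in OVA and -5410 in PBS, that of Col1a1 -1060 and -303, and that of Col1a2 -2210 and -1000. The part of fibroblast number or Scara5 expression in its missing OVA peaks was not tested.

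Cd36 and Scarb1 are class B receptors. Cd36 (ENSMUSG00000002944), which takes up fatty acids and oxidized lipoprotein in endothelium and macrophages, had no peak, and the nearest one, called on Sema3c, was 52172 bp away in both lists. Scarb1 (ENSMUSG00000037936), the receptor for high-density lipoprotein, had 1 peak in each list and it differed little between them. It began at 125277536 on chromosome 5 in both, 449 bp inside the edge of the RefSeq gene, and ended at 125277775 in OVA and 125277805 in PBS. The fold enrichment was 3.65 in OVA and 3.74 in PBS, at percentiles 34 and 35.6, and the log10 p was -111 and -73.7.

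Both Scarb1 peaks were called on Scarb1, but the annotation assigned them to Gm32585, a long intergenic non-coding RNA. A search by the assigned name would therefore find no Scarb1 peak. The opposite case was 1 PBS peak assigned to Lgals3bp and called on its neighbour Cant1. In all, 1 of the 15 OVA member peaks and 2 of the 15 PBS member peaks had an assigned gene that was not the called gene, compared with 22.5% of all OVA peaks and 22.8% of all PBS peaks. All 29 member peaks that were called on a member lay inside the span of that gene in RefSeq.

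Cd163, Cd5l and Lgals3bp carry scavenger receptor cysteine-rich domains. Cd163 (ENSMUSG00000008845), the macrophage receptor for haptoglobin bound to haemoglobin, had the most peaks of the 10 genes, 6 in OVA and 5 in PBS. At least 6 peaks were called on 2.3% of the genes of the OVA list, and at least 5 on 5.07% of those of the PBS list. The peaks ran along most of the gene on chromosome 6, from 124307056 to 124330527 in OVA and from 124307115 to 124330437 in PBS. Of these peaks, 5 in OVA and 3 in PBS were assigned to retained-intron transcripts of Cd163. They were all the member peaks of that class, 33.3% of OVA and 20% of PBS member peaks, beside 20.4% and 20.1% of all peaks.

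At the 5' side, OVA had 1 peak of 4 blocks, from 124307056 to 124312584, annotated to exon 3 of 17. PBS had 2 peaks of 2 blocks each inside it, 124307115 to 124309036 and 124311602 to 124312524. The OVA blocks summed to 1075 bp, and those of the PBS peaks to 300 bp and 210 bp. The fold enrichment was 7.01 in OVA (percentile 57.8), and 3.04 (percentile 27.4) and 2.45 (percentile 18.7) in PBS. Here the OVA rank was higher by 30.4 points against the PBS peak with the larger overlap, and the log10 p was -193 in OVA against -4.27 and -4.81 in PBS.

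In exon 7 the order was reversed. The OVA peak, 124317472 to 124317805, had a fold enrichment of 2.09 (percentile 11.9), and the PBS peak, 124317502 to 124317894, had 6.02 (percentile 53.6), which is 41.7 points lower in OVA. Their log10 p values were nearly the same, -22.5 and -22.3. Thus 2 peaks of Cd163 moved past 20 points in rank, 1 in each direction.

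The 3' side of Cd163 had an exon peak and a peak at the end of the 3' UTR in both lists. The exon peak, annotated to exon 15 of 17 in OVA and to exon 5 of 6 of another transcript in PBS, ran from 124327953 to 124328431 in OVA, with a fold enrichment of 3.92 (percentile 36.9), and from 124328043 to 124328371 in PBS, with 2.58 (percentile 20.8). The last peak, at 124330258 to 124330527 in OVA and 124330318 to 124330437 in PBS, had the highest fold enrichment of the gene in either list, 11.6 (percentile 75.5) and 9.87 (percentile 71.5). In OVA it ended 2 bp, and in PBS 92 bp, before the RefSeq end of the gene. The log10 p of these peaks was -106 and -45 in OVA, and -3.32 and -3.43 in PBS, so the PBS calls were weak.

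The 2 Cd163 peaks found in OVA alone had low fold enrichments. A peak in exon 11 (124320439 to 124320618) had 1.74 and a log10 p of -6.67, and a 3' UTR peak (124328819 to 124329662) had 2.7 and a log10 p of -43.1. Among the OVA peaks within 5 points of their p percentiles, 32.4% and 3.78% overlapped no PBS peak. Here too the match was by OVA p alone and made no allowance for weak PBS support of the gene.

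Cd5l (ENSMUSG00000015854), a macrophage protein that binds lipids and microbes, had no peak, and the nearest, called on Fcrl1, was 18542 bp away in both lists. Lgals3bp (ENSMUSG00000033880), a secreted galectin-binding glycoprotein, had the lowest p values of the members. Its 3' UTR peak began at 118392751 on chromosome 11 in both lists, 4 bp inside the RefSeq gene, and ended at 118393470 in OVA and 118393500 in PBS. The fold enrichment was 4.79 and 4.59, at percentiles 44.6 and 43.7, and the log10 p was -1950 and -596. Lgals3bp thus combined a middling enrichment with a very low p in both lists.

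Its peak in exon 5 of 6 ended at 118396627 in both lists and began at 118393680 in OVA and at 118393800 in PBS. Here the fold enrichment was 7.06 in OVA (percentile 58) and 4.62 in PBS (percentile 43.9), and the log10 p was -1070 and -242. The PBS peak called on Cant1 ran from 118407274 to 118408785, outside the Lgals3bp gene, with a fold enrichment of 7.47. In OVA 1 peak with a fold enrichment of 14.3, from 118407274 to 118411269, covered it, and that peak was both called on and assigned to Cant1. The OVA peak also reached over another PBS peak called on and assigned to Cant1, from 118410189 to 118411239 with a fold enrichment of 7.5. The stretch counted toward Lgals3bp in PBS alone, and the peaks differed in extent as well as in the assigned gene.

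Stab1 (ENSMUSG00000042286), stabilin-1 of macrophages and sinusoidal endothelium, had no peak called on it. A peak called on its neighbour Nt5dc2 overlapped its RefSeq span in both lists. In OVA it lay inside the span, at 31139035 to 31139094 on chromosome 14, and in PBS it crossed the edge, at 31138946 to 31139124. The fold enrichment of that peak was 1.59 and 1.8. It was both called on and assigned to Nt5dc2 in each list.

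**Figure D2:**
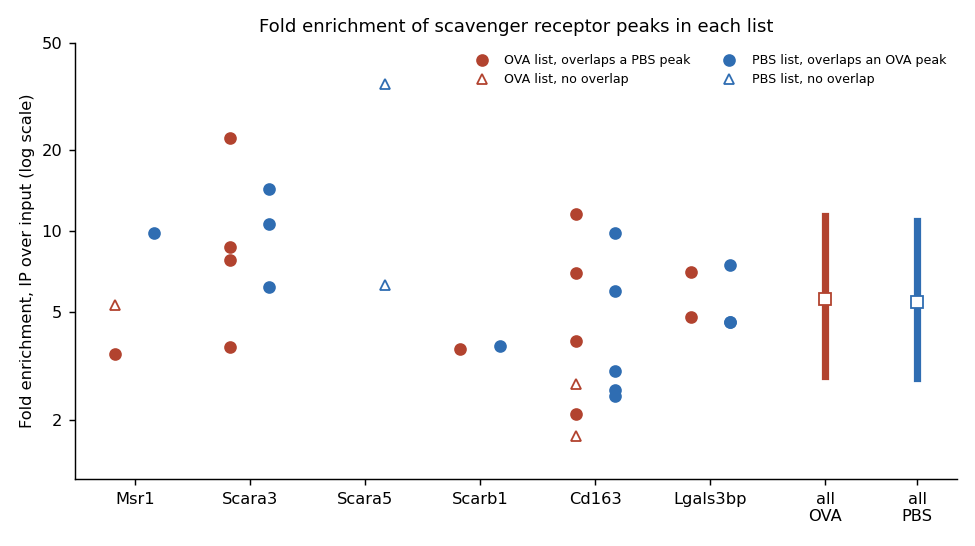
Fold enrichment of IP over input (log scale) of each peak of the 6 genes with a peak, in the OVA list (red) and the PBS list (blue), with open triangles for peaks that overlap none of the other list; at the right, bars give the quartiles and squares the medians of all peaks. The Scara5 exon peak at 35 and the Scara3 3' UTR peak at 22.2 stand highest, and the medians of all peaks were 5.59 in OVA and 5.44 in PBS.

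Over all members, the median fold percentile was 44.6 for OVA and 54.8 for PBS, with 50 as the middle of a list. Of the 12 OVA peaks with a PBS partner, 1 ranked at least 20 points higher in OVA, 3 at least 20 points lower, and 8 lay within 20 points, beside 9.12% higher and 8.56% lower among all OVA peaks with a partner. The 3 lower ones were the Msr1 3' UTR peak, the Cd163 exon 7 peak and the less enriched of the 2 Scara3 exon 5 peaks, the last at 20.1 points and so just past the threshold. The Scara3 peaks at 19.9 and 19.4 points were just inside it. Counted from the PBS side, 2 of 13 peaks with an OVA partner ranked at least 20 points higher in PBS and 3 at least 20 points lower, beside 6.34% and 11.9% of all PBS peaks with a partner. The 2 were on Msr1 and Cd163 exon 7, and the 3 were both 5' side peaks of Cd163, which share 1 OVA peak, and the peak called on Cant1. The balance between the lists thus reversed with the side counted, and no common direction was seen.

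By p the picture differed. Of the same 12 peaks, 4 stood at least 20 points higher in p percentile in OVA and 0 at least 20 points lower, against 6.42% and 5.81% of all OVA peaks with a partner. The 4 were the Msr1 3' UTR peak and 3 peaks of Cd163. The less enriched Scara3 exon 5 peak, at p percentile 32.7 in OVA and 52.4 in PBS, had a difference of -19.7 points and so was just inside the threshold on the other side. This comparison by p, like the shares given for peaks of a similar p, was chosen after its values were seen, and peaks of 1 gene share its expression.

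**Figure D3:**
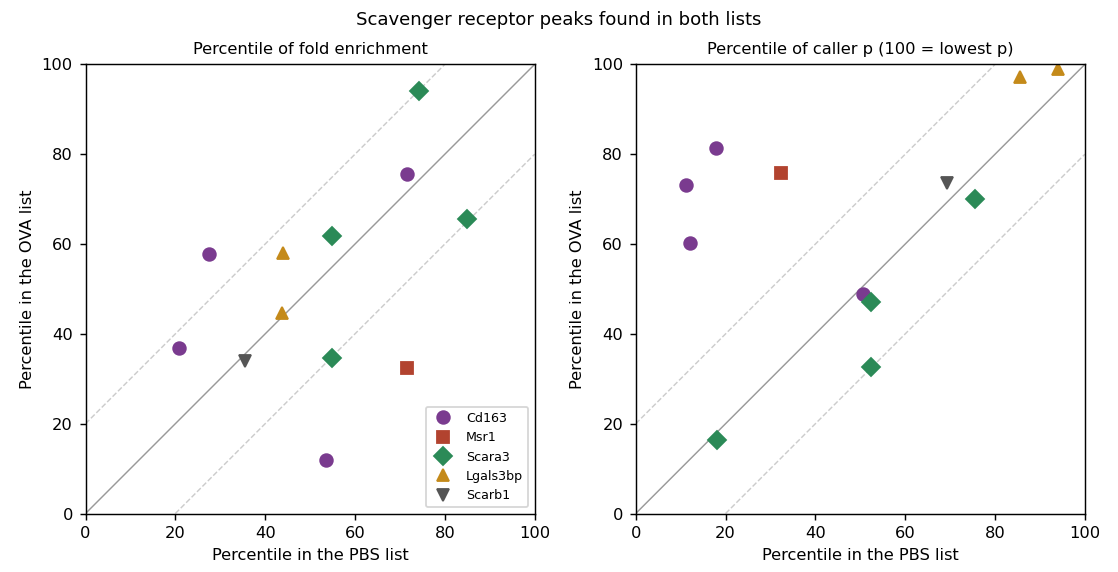
Percentile in the OVA list against percentile in the PBS list for the 12 OVA member peaks with an overlapping PBS peak, by fold enrichment (left) and by the caller's p (right, with 100 the lowest p); the solid line marks equal ranks and the dashed lines 20 points either way. By p, 3 Cd163 peaks and the Msr1 peak lie above the upper dashed line and none below the lower.

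Several macrophage markers also stood at a higher p percentile in OVA. The 3 chains of complement C1q stood at p percentiles of 90.5 (C1qa), 97.8 (C1qb) and 62.7 (C1qc) in OVA, by the strongest peak of each gene. In PBS they stood at 58.9, 72.7 and 29.3. Itgax, the integrin of alveolar macrophages and dendritic cells, stood at 99 and 74.3, and the mannose receptor Mrc1 at 76.6 and 46.6. Cx3cr1 stood at 72 and 74.1, Lyve1 at 92.2 and 93.8, Csf1r at 85 and 85.8, and Car4 at 82 and 82.1, which were close in both lists. The strongest Lyve1 peak of each list was called on Lyve1 but assigned to Rnf141. Pparg stood between, at 65.8 and 55.9. Markers of other cell types went both ways. Among the eosinophil and neutrophil markers, only Ear2 had a peak in both lists, and it stood at 94.8 in OVA and 76.6 in PBS. S100a8 and S100a9 had a peak in PBS alone, Retnlg had a peak in OVA alone, and Prg2 and Epx had none. Of the 6 epithelial markers with a peak in both lists, 4 were higher in OVA and 2 lower, with a median difference of 3.1 points, from Ager at 50.5 and 34.2 to Foxj1 at 86.7 and 88.4. Of 3 such fibroblast markers other than the members, 2 were higher (Col1a1, at 97.2 and 88.1, and Col1a2) and 1 lower (Pdgfra). All 3 endothelial ones (Pecam1, Cdh5 and Kdr) were lower, with a median difference of -0.5 points. Cdh5 stood at 99.1 and 99.6 and Kdr at 99.5 and 99.8, so near the top of a list that percentiles could differ little. The log10 p of Cdh5 was -2060 in OVA and -3410 in PBS, and that of Kdr -2850 and -6040. With Cd163 left out, the median difference was 12.1 points over 6 interstitial and tissue macrophage markers, 3 of them higher in OVA and 3 lower. It was 17.3 points over 4 alveolar macrophage markers, 3 higher and 1 lower. No such count or median over all genes is given here. Whether these marker values differ from those of the lists as a whole is therefore unknown.

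Of the 9 interstitial and tissue macrophage markers, Cd163 among them, 7 had a peak in both lists and 2 (Folr2 and Adgre1) had none. Of the 8 alveolar macrophage markers, 4 had a peak in both, Chil3 had 1 in the PBS list alone, and Marco, Siglecf and Fabp4 had none. A defining gene without a peak says nothing of whether its cells were present. The part of macrophage number in the Cd163 and Msr1 values was not tested.

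By the lists' annotation, 6 of the 15 member peaks were in the 3' UTR in either list (40%), beside 52.7% of all peaks in both lists. The PBS count includes the peak called on Cant1, outside the Lgals3bp gene. Among the 14 PBS peaks called on a member, 5 were in the 3' UTR. Exons held 9 OVA and 8 PBS member peaks (60% and 53.3%), beside 35.7% and 35.9% of all. The 5' UTR peak of Scara5 was the single one of its kind. Cd163 and Scara3 gave most of the exon peaks. Peaks of more than 1 block made up 6 of 15 in each list (40%), beside 24.1% of all OVA and 21.4% of all PBS peaks. The peak called on Cant1 was among those of PBS.

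Of the 21 other scavenger receptor genes, 15 had a peak in both lists, 2 in the OVA list alone, 0 in the PBS list alone and 4 in neither (Stab2, Cd68, Dmbt1 and Cd209a). Genes of this group with a peak had a median of 2 peaks in either list, as did all genes with a peak. They had 36 peaks in OVA, 7 of them without a PBS partner (19.4%), and 33 in PBS, 2 of them without an OVA partner (6.1%), beside 19.4% and 14.5% of all peaks.

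Cxcl16, a chemokine that is also a membrane receptor for oxidized lipoprotein, had 3 OVA peaks and no PBS peak. Its folds were low, 1.7, 1.29 and 3.43, and the log10 p of the peak with the highest fold was -37.8. Fcrls, a scavenger receptor-like gene of macrophages and microglia, had 2 OVA peaks, with fold enrichments of 2.11 and 2.23. Both genes thus appeared in OVA at enrichments below the lower quartile of the list, 2.91, apart from the Cxcl16 peak at 3.43.

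The most peaks in this group were on Colec12, a class A receptor of vascular endothelium, with 5 in OVA and 6 in PBS, each with a partner. Its highest fold enrichment was 12.8 in OVA (percentile 79.2) and 15.2 in PBS (percentile 86.7). Scarb2, the lysosomal relative of Cd36 and Scarb1, had 4 and 3 peaks of low fold, at most 2.71 and 2.08, all assigned to its neighbour Nup54. Scarf2 and Lrp1 had 3 peaks in each list. Of the Lrp1 peaks, the 5' UTR peak had a fold enrichment of 19 in OVA (percentile 90.8) and 3.59 in PBS (percentile 34.1).

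The term scavenger receptor activity, in the lists' own annotation, covered 25 genes with a called peak, of which 20 had a peak in both lists, 4 in OVA alone (Cxcl16, Fcrls, Prg4 and Tmprss4) and 1, Scara5, in PBS alone. This set was taken, and its genes named, after the lists had been seen. It held Msr1, Cd163, Scara5 and Lgals3bp of the members, while Scara3 had an entry without the term. Of the 50 OVA peaks on these genes 14 (28%) had no PBS partner, beside 19.4% of all OVA peaks, and of the 44 PBS peaks 4 (9.1%) had no OVA partner, beside 14.5% of all PBS peaks. The 14 include the 3 on Cd163 and Msr1, and the 4 include both on Scara5.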

How the data were processed

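Per the study's methods, the authors used FASTP to trim reads, HISAT2 with the Ensembl mouse genome for alignment, exomePeak for peak calls and ChIPseeker for annotation. The submitters' processing notes also name HISAT2 and ChIPseeker. How they combined the mice of a group is not given in the sources used here. The deposited fold enrichment is a ratio of IP over input, and each deposited score is a log10 p or log10 FDR from the authors' caller. Deposited starts were counted from 0, since end minus start equalled the block length in all 20705 OVA and 20516 PBS peaks of 1 block, and 1 was added to them. RefSeq positions are those of GRCm38.

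Peaks were compared by at least 1 bp of overlap between exonic blocks, without strand, and the partner was the peak with the largest overlap. Percentiles are ranks within a list. A symbol was found for the called gene of 27259 OVA and 26070 PBS peaks. No test was run, since each list is pooled. Named by rule are all members. Of the other receptor, partner and marker lists, genes with a peak in 1 list alone were named. So were the 3 with the most OVA peaks (with ties). In the epithelial list, however, the genes tied at 1 OVA peak were left out. Other genes were named after their values were seen. The members and lists were chosen with earlier results of these data known. Motifs and sequences were not analysed here. Lists were read with pandas 2.3.3 and numpy 2.4.6 in Python 3.11.15, ranked with scipy 1.17.1 and drawn with matplotlib 3.10.9. The overlap code was tested on simulated data.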

Additional observations from a re-analysis of the deposited data

How the results depend on the processing

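Of 88 values computed under other settings, 75 were within 1.5 times of the reported count or share. The alternative median fold percentiles were judged by the binomial interval of the reported percentile instead, and all fell outside it. Asking for an identical start and end left 0 shared member peaks and 15 unshared ones in either list, and 10.3% of all OVA and 10.7% of all PBS peaks shared. Asking for an overlap of 50% of both peaks gave 6 unshared member peaks of 15 in OVA and 5 of 15 in PBS. At that setting 68.6% of all OVA and 71.7% of all PBS peaks were shared. An FDR under 0.001 gave 5 unshared OVA peaks of 15, since the PBS partners of 2 Cd163 peaks no longer entered. Of all OVA peaks, 83.2% were shared under that FDR. The median fold percentile was 42.2 in OVA and 57.3 in PBS among peaks of the same region, and 43.8 and 54.1 among peaks with an FDR under 0.05. Numbers of member peaks, of genes with a peak and of 3' UTR peaks stayed within 1.5 times under each FDR, fold and gene rule tried. Counting overlap only between peaks called on the same gene, a setting chosen after seeing the data, gave 3 unshared OVA and 2 unshared PBS peaks. With it, 80.3% of all OVA and 85.3% of all PBS peaks were shared. No paired analysis was possible because the lists hold no value of a single mouse, and leaving out replicates was not run for the same reason. The motif count was not run, as no genome was used. Without read numbers, a missing peak of a weakly covered gene cannot be told from a missing mark.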

Other observations

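Of 18 partners and ligands of the receptors, 10 had a peak in both lists, 0 in 1 list alone and 8 in neither. Those without a peak were haemopexin (Hpx), haem oxygenase (Hmox1), the galectins Lgals1 and Lgals3, the apolipoproteins Apoa1 and Apoe, the ferritin light chain Ftl1 and the lipid droplet protein Plin2. Haptoglobin (Hp), whose complex with haemoglobin binds Cd163, had 1 peak in each list, with a fold enrichment of 22.1 in OVA (percentile 93.9) and 16.8 in PBS (percentile 89.4). Abca1, Lpl and Thbs1 had the most peaks, 4 each in OVA, and 4, 4 and 3 in PBS. Abca1, the cholesterol exporter, had its highest fold enrichment at 24 in OVA and 23.5 in PBS. Over the group, 24 peaks were called in each list and 2 in each had no partner in the other (8.3%). Among all peaks, 19.4% of OVA and 14.5% of PBS peaks had none.

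Among markers of granulocytes, Ear2 had 1 peak in both lists, Prg2 and Epx had none, Retnlg had 1 in OVA alone, and S100a8 and S100a9 had 1 each in PBS alone. The fold enrichments of these unshared peaks were 2.46 for Retnlg, 2.15 for S100a8 and 2.59 for S100a9. The alveolar macrophage gene Chil3, with 1 peak in PBS alone, had 1.75. Of the 7 lung epithelial markers, 6 had a peak in both lists and Sftpc had none. Of the 5 endothelial markers, 3 had a peak in both lists, with 5 for Pecam1 in each, and Cd36 and Stab1 had none.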
